A study of Mus musculus with 70 samples.

Results

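The genes described here are the 81 protein-coding genes for proteins of the cytosolic ribosome, chosen by symbol alone: names that begin with Rpl or Rps and a number, together with Rplp0, Rplp1, Rplp2 and Rpsa, without the Rps6k kinases and without rows marked as pseudogenes by -ps. The same 81 genes stood in all 5 count tables of the series, among 17838 to 20722 genes per table. They comprise 46 proteins of the large subunit, 31 of the small subunit and 4 paralogues, Rpl7l1, Rpl22l1, Rpl39l and Rps27l. The naming rule used no expression value, but the members were chosen with earlier results of these data known.

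The series profiled brain microglia from mice that carry the tamoxifen-activated recombinase CreERT2 in 1 copy of the Cx3cr1 gene, a gene expressed in microglia, so that expression of the Cre follows that promoter. Each of the 70 libraries came from 500 sorted CD11b+ CD45+ Ly6G- CD206- cells and was prepared by CEL-Seq2, which counts 3' ends by molecular identifiers. The labels give ages of 8 days, 14 days and 6 to 15 weeks for the series as a whole, without tying an age to a library. In the postnatal table, 5 libraries of the Littman line (Cx3cr1CreERT2(Litt) Hetero, Cre+) and 5 of wild-type Cx3cr1+/+ (Cre-) were both labelled tamoxifen (TAM). The same table holds Jung-line mice (Cx3cr1CreERT2(Jung) Hetero with Rosa26YFP Hetero) given oil (5 libraries) or tamoxifen (4 libraries). A second table holds pups given vehicle or UC2288, a compound used against the cell-cycle inhibitor CDKN1A (p21). Its groups are vehicle with tamoxifen in Cre- (5 libraries) and in Littman Cre+ mice (4), vehicle with oil in Cre+ mice (4), and UC2288 with tamoxifen in Cre+ (5) and Cre- mice (3). The BLZ-titled table holds Littman Cre+ mice labelled BLZ945 with oil (3) or tamoxifen (4), and Jung Rosa26YFP mice labelled oil (4) or tamoxifen (4) only. BLZ945 is an inhibitor of the CSF1 receptor, given at 100 mg/kg, as was UC2288. Tamoxifen doses were 4 mg in adults and 0.1 or 0.2 mg in pups. The adult Littman table compares oil (4) with tamoxifen (3). The adult-titled Jung table has 4 libraries labelled BLZ945 with oil and 4 labelled BLZ945 with tamoxifen. Titles and treatment labels disagree about which Jung libraries had BLZ945, and groups follow the titles. Cre+ and Cre- mice also differ in 1 functional Cx3cr1 allele, which the Cre replaces.

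Ribosomal proteins assemble with ribosomal RNA into the large subunit, which joins amino acids, and the small subunit, which reads the messenger RNA. Their messenger RNAs are abundant, are mostly made in step with each other, and as a class start with a run of pyrimidines (the 5' terminal oligopyrimidine or TOP motif) through which the mTORC1 kinase and the RNA-binding protein LARP1 control their translation. The p53 pathway, of which Cdkn1a is a target, responds to unbalanced ribosomal proteins, and Rps27l is a known p53-responsive member.

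Start-site sequences are shown because the TOP run is the feature these genes are known to share. Of the 81 genes, 61 matched an entry of the RefSeq start-site table (GRCm38.p6). The letters CTTTC occurred on the gene's strand within 10 bases of the annotated start in 11 of the 61 genes (18%), against 2.91% of all 27025 gene symbols in the table. The reverse complement, GAAAG, occurred in 3.28% of the members and 2.66% of all symbols. The other runs searched in the same window were CTTT (26.2% of members and 9.12% of all symbols), CTTCC (16.4% and 5.02%), TCTTT (14.8% and 2.58%) and CTCTTTCC (4.92% and 0.074%), several of which overlap CTTTC. On the opposite strand these 4 runs occurred in 6.56%, 6.56%, 1.64% and 0% of members and in 8.63%, 5.33%, 2.47% and 0.0999% of all symbols. The motifs were chosen with the windows in view, and a match is a description of the letters. The windows below span 15 bases on each side of the annotated start, with CTTTC in capitals. Rps27, Rps10 and Rpl28 hold the run. Rps27l, the paralogue of Rps27, and Rps2 are shown because both were among the members not called in the vehicle table, and neither holds these letters in this window. These windows were picked and do not stand for called and uncalled members. Rpl38 holds the run and was not called against Cre- or oil (edgeR adjusted p = 0.369 and 0.238). Rplp0 and Rpl10, both called lower, do not hold it. A link between the run and the fall was not tested.
Rps27, chr3:90213634-90213663, minus strand: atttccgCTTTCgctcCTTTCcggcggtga
Rps10, chr17:27635230-27635259, minus strand: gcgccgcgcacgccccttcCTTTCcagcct
Rpl28, chr7:4792950-4792979, plus strand: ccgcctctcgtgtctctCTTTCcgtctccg
Rps27l, chr9:66946071-66946100, plus strand: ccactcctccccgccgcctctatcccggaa
Rps2, chr17:24720048-24720077, plus strand: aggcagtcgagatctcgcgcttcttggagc

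Libraries held 116083 to 450461 counts. The summed share of the 81 genes in a library's counts ran from 1.42% to 9.37%, and 95% Wilson intervals on these shares reached at most 0.150 percentage points to either side, which covers counting error only. The targeted locus followed the labels as a group: in the postnatal table Cx3cr1 averaged 1510 ± 107.5 CPM (counts scaled to a common library total; SD, n = 5) in Littman Cre+ and 4071 ± 80.3 (SD, n = 5) in Cre- libraries. One library labelled UC2288 tamoxifen Cre+ (replicate 3) had 2047 CPM of Cx3cr1, against 742 to 1031 in the other 4 of its group. Its group's microglia marker sum reached 14824 CPM around a median of 6165 CPM, and that highest value was in the same library. Its Cx3cr1 was still below that of every Cre- library in the table (2719 CPM or more). Its Cdkn1a (566.6 CPM) and Malat1 (7387 CPM) were above those of every Cre- and oil library (at most 199 and 5927 CPM). Whether its label is right is in doubt, so comparisons that use it are also given without it. All 7 microglia markers fixed for the check, among them P2ry12, Tmem119, Csf1r, Fcrls, Siglech and Sall1, were detected in each group of the 5 tables described here. Rows named as -ps copies of ribosomal protein genes took a median of 1.44% of counts in the vehicle table and 0.169% to 0.275% in the other 4. How reads shared with such copies were counted is not given in the sources used here, so levels were compared only within a table. Among tested members, mean CPM in the vehicle table was highest for Rps12 (2465) and Rps29 (2352), and lowest for Rpl7l1 (52.7), Rpl22l1 (55.3) and Rps10 (95.4). These are levels of 3' tags, 1 per molecule. Rpl24, Rpl23a and Rpl39l had too few counts to be tested in any table. The number of members tested was 76 in the postnatal, 78 in the vehicle, 77 in the BLZ-titled, 75 in the adult Littman and 74 in the adult Jung table. Whether replicates came from separate animals is not stated, so p-values measure only the spread between these libraries, which may be technical.

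**Figure D1:**
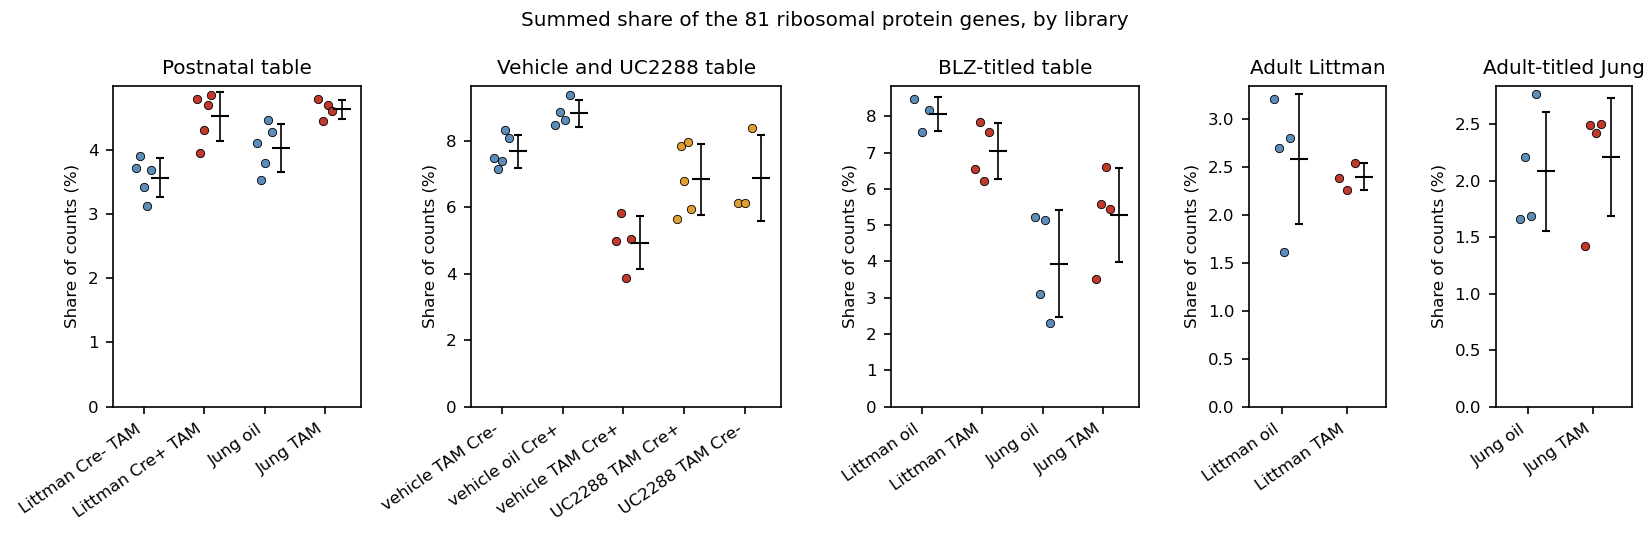
Summed share of the 81 genes in each library's counts (%), 1 point per library, with the group mean and SD at the right of each group, in the 5 tables. Vehicle tamoxifen Cre+ libraries (3.87% to 5.84%) lie below every vehicle Cre- and vehicle oil library, and postnatal Littman Cre+ libraries (3.95% to 4.86%) lie above every Cre- library.

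The question of the vehicle table is what tamoxifen does in microglia of Littman Cre+ pups, with and without UC2288. Ribosomal protein genes fell as a block in vehicle-treated Cre+ pups given tamoxifen. Their summed share was 4.99%, 5.84%, 3.87% and 5.06% in the 4 Cre+ tamoxifen libraries. The 5 Cre- tamoxifen libraries had 7.48%, 7.17%, 7.38%, 8.34% and 8.09%. The 4 Cre+ oil libraries had 8.46%, 8.86%, 8.62% and 9.37%. Every Cre+ tamoxifen library lay below every library of both comparison groups, with means of 4.94% ± 0.811 (SD, n = 4), 7.69% ± 0.498 (SD, n = 5) and 8.83% ± 0.399 (SD, n = 4). In single genes, edgeR's quasi-likelihood test with Benjamini-Hochberg adjustment over all 4953 tested genes called 71 of 78 members lower and none higher in Cre+ than in Cre- mice, where 12.7% of all tested genes were called lower and 14.5% higher. The median member log2 fold change was -0.83, against -0.01 for all tested genes. In 62 members the Cre+ libraries lay wholly below the Cre- libraries, as they did in 11.3% of all genes. Against oil-treated Cre+ libraries, 72 of 78 members were called lower and none higher (15.3% of all genes were called lower and 16.4% higher), with a median of -0.94. Groups did not overlap in 70 members there, as in 15% of all genes. The 2 comparisons share the 4 Cre+ tamoxifen libraries. Both subunits took part: 42 of 44 large-subunit and 28 of 31 small-subunit genes were called lower against Cre-, with medians of -0.82 and -0.84.

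Rplp0, the core protein of the ribosomal P stalk, had 931, 1039, 631 and 686 CPM in the 4 Cre+ tamoxifen libraries. Cre- tamoxifen libraries had 1240, 1468, 1331, 1499 and 1553 CPM, and Cre+ oil libraries had 1415, 1364, 1628 and 1489 CPM. Each Cre+ tamoxifen value was below all values of the other vehicle groups. The log2 fold change was -0.78 (SE 0.185, edgeR adjusted p = 0.00109) against Cre- and -0.84 (SE 0.194, adjusted p = 6.74e-04) against oil.

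Rpl10, a large-subunit protein added late in assembly, had 484, 567.7, 348 and 422 CPM in Cre+ tamoxifen libraries. It had 949, 1081, 1046, 1176 and 1303 CPM in Cre- libraries and 900.0, 1396, 1318 and 1941 CPM in oil libraries. The groups did not overlap, and the log2 fold change was -1.29 (SE 0.211, edgeR adjusted p = 4.21e-06) against Cre-. Rps10, a protein of the small-subunit head, had the lowest fold change against Cre-, -1.58 on the log2 scale (SE 0.368, edgeR adjusted p = 9.65e-04), with overlapping groups and few counts (327 over the table). Among the 10 members with the largest falls against Cre- were also Rpl22l1, Rps4x, Rpl14, Rpl21, Rpl37a, Rpl10a and Rpl15, with log2 fold changes from -1.45 to -1.17. Against oil the 10 largest falls included those of Rpl22l1 (-2.07), Rps10, Rpl10, Rpl10a, Rps16, Rpl41, Rpl21, Rpl36 and Rpl37a (-1.45). Rpl15, Rps10 and Rpl10a are uncertain, because their -ps rows held 3638, 768 and 1916 counts in this table, more than the genes' own 420, 327 and 1498. Rpl36 had 858 -ps counts beside 1038 of its own, and Rps16 had 1147 beside 1607. Rpl10 had 1694 beside 3138, and Rpl14 had 990 beside 2038. Fold changes of Rpl36, Rps16, Rpl10 and Rpl14 are uncertain for the same reason. Rpl22l1 is uncertain because it had few counts (194 over the table).

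The paralogues did not move alike. Rps27, a small-subunit protein with a zinc finger, had 330, 494, 210 and 566 CPM in Cre+ tamoxifen libraries and 832, 997, 834 and 951 CPM in Cre+ oil libraries. All 4 tamoxifen values lay below all 4 oil values, and the log2 fold change was -1.20 (SE 0.226, edgeR adjusted p = 4.73e-05). Against Cre- libraries (762, 546, 872, 697 and 698 CPM) the groups overlapped through 1 library on each side, and the log2 fold change was -0.86 (SE 0.216, adjusted p = 0.002). Rps27l (chr9:66946086-66949516, plus strand, GRCm38), the paralogue of Rps27, had 177, 189, 134 and 234 CPM in Cre+ tamoxifen, 153, 144, 181 and 222 CPM in Cre+ oil, and 152, 131, 222, 193 and 128 CPM in Cre- libraries. These 3 groups overlapped, and its log2 fold changes were 0.12 (SE 0.241, edgeR adjusted p = 0.755) against Cre- and 0.05 (SE 0.258, adjusted p = 0.911) against oil. The difference between Rps27 and Rps27l was not tested. Rpl22 and its paralogue Rpl22l1 were both called lower. Rpl22l1 (chr3:28805436-28807424, plus strand) had 22.5, 23.1, 21.8 and 22.6 CPM in Cre+ tamoxifen, 102, 63.8, 93.3 and 127 CPM in oil, and 34.6, 39.8, 84.5, 74.7 and 75.6 CPM in Cre- libraries. Its Cre+ tamoxifen libraries were the lowest of the 3 groups in every case, and its log2 fold changes were -1.45 (SE 0.420, edgeR adjusted p = 0.00727) against Cre- and -2.07 (SE 0.419, adjusted p = 1.27e-04) against oil. Rpl22l1 had few counts (194 over the table). Its Cre+ tamoxifen level was too low for the low-count filter, so it entered the test only through libraries of other groups. Its fold changes and lack of overlap are therefore uncertain, and it was too low to be tested in the other tables. Rpl22 differed by -0.61 (SE 0.202, adjusted p = 0.0192) and -0.60 (SE 0.213, adjusted p = 0.025) in the same comparisons, but lost both calls without Cre+ tamoxifen replicate 3 (-0.38, adjusted p = 0.185, and -0.36, adjusted p = 0.213). It also lost the first without Cre- replicate 1 (adjusted p = 0.0552) and the second without oil replicate 2 (adjusted p = 0.0871). Rpl39, a small protein of the peptide exit tunnel, differed by -0.71 (SE 0.236, edgeR adjusted p = 0.0207) against Cre- and -1.09 (SE 0.247, adjusted p = 6.74e-04) against oil. Its call against Cre- was lost without Cre+ tamoxifen replicate 1 (adjusted p = 0.0727) or 3 (adjusted p = 0.138).

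The other members that did not pass the test against Cre- mice were Rps2, Rps6, Rps19, Rpl38, Rpl13a and Rpl7l1. Rps2 had a log2 fold change of 0.01 (SE 0.310, edgeR adjusted p = 0.984), with 1344, 1519, 939 and 701 CPM in Cre+ tamoxifen and 1150, 1411, 1347, 554 and 1146 CPM in Cre- libraries. It had the largest biological coefficient of variation of the members in this table (0.284), and its 9 -ps rows held 4955 counts beside 4288 of its own. Rps6, the target of the S6 kinases, did not overlap between groups, and had a log2 fold change of -0.81 (SE 0.317, adjusted p = 0.0632). Rps19, Rpl38, Rpl13a and Rpl7l1 had log2 fold changes of -0.39, -0.36, -0.45 and 0.38, with adjusted p-values of 0.153, 0.369, 0.263 and 0.438.

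**Figure D2:**
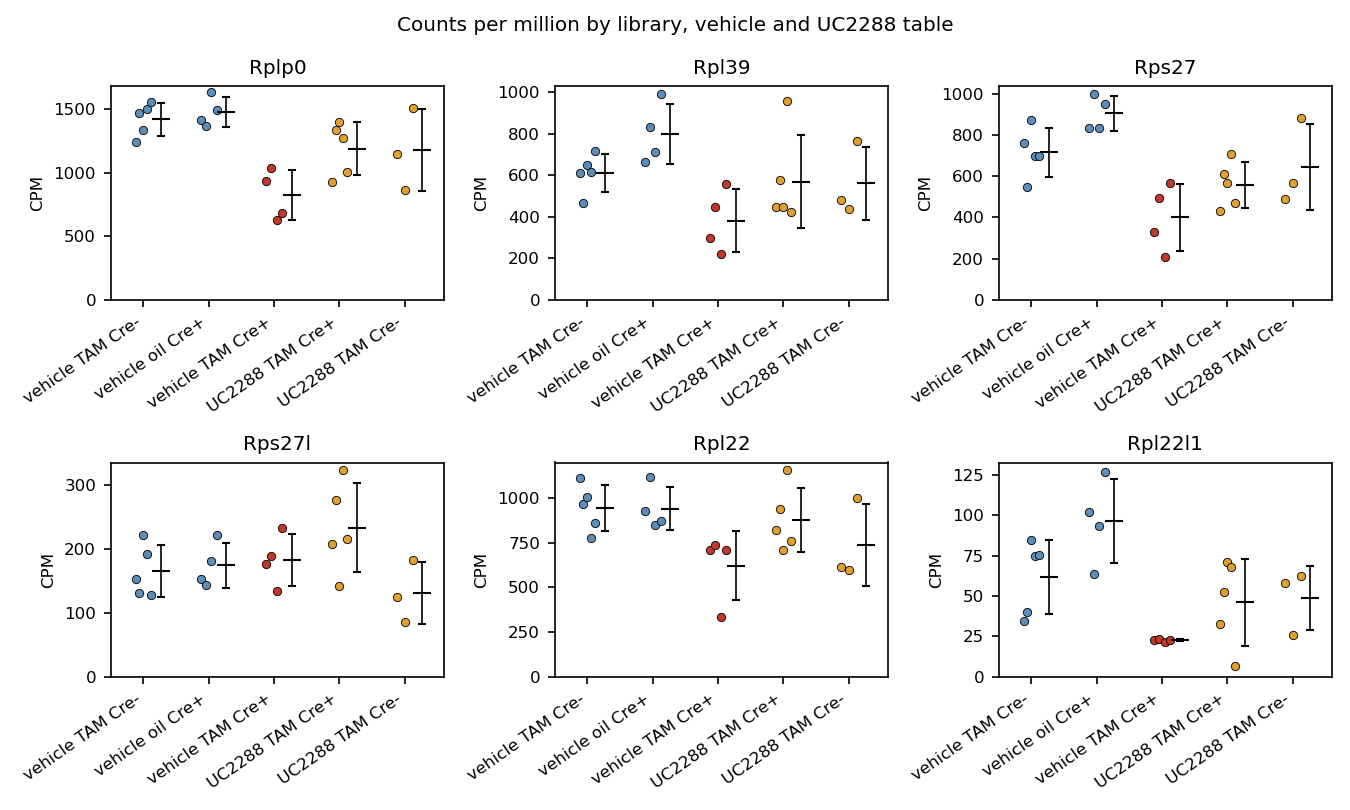
CPM of Rplp0, Rpl39, Rps27, Rps27l, Rpl22 and Rpl22l1 by library in the vehicle and UC2288 table, with the group mean and SD at the right of each group. Rplp0 and, with few counts (194 over the table), Rpl22l1 are lower in all vehicle tamoxifen Cre+ libraries than in the other vehicle libraries. Rps27l overlaps between groups (134 to 234 CPM in vehicle tamoxifen Cre+).

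Other values moved with the fall. The nuclear RNA Malat1 took 0.891% to 1.13% of counts in the Cre+ tamoxifen libraries, against 0.262% to 0.518% in Cre+ oil and 0.317% to 0.480% in Cre- libraries. Those libraries also had more genes detected (11145 to 12681, against 9948 to 11107 and 10591 to 11143). Mitochondrially encoded counts took 7.76% to 9.59%, against 8.93% to 12.3% and 11.1% to 15.9%. The -ps rows of ribosomal protein genes were lower with the genes, at 0.682% to 0.904% of counts against 1.38% to 1.70% in Cre- libraries. The summed level of the 7 microglia markers was 5503 to 6173 CPM in Cre+ tamoxifen libraries, 13596 to 17025 CPM in oil and 11534 to 12837 CPM in Cre- libraries. The summed level of the 4 monocyte markers was 96.5 to 277.7 CPM, against 0 to 21.7 and 0 to 23.4 CPM, with 2 of the 4 (Ly6c2 and Chil3) at 0 in all 3 groups. The border macrophage list (Mrc1, Pf4, Lyve1, Cd163, F13a1) was lower, at 62.0 to 169 CPM against 291 to 352 and 267 to 462 CPM, with Lyve1 at 0 in all 3 groups, Cd163 at 0 in both Cre+ groups and F13a1 at 0 in the oil and Cre- groups. The 5 neutrophil markers were at 0 in all 3 groups. The proliferation list was also lower, at 793 to 923 CPM against 1178 to 1443 and 1235 to 1465 CPM. The astrocyte list (Aldoc, Gfap, Aqp4, Slc1a3, Slc1a2) was higher, at 63.0 to 100.8 CPM against 30.4 to 43.5 and 18.7 to 51.9 CPM, with Gfap at 0 in all 3 groups and Aldoc at 0 in both tamoxifen groups. Their part in the fall was not tested, and in pooled cells fewer cells of a type and less RNA per cell cannot be told apart. At nearly equal depth, Cre+ tamoxifen replicate 4 (145050 counts) had a share of 5.06% and Cre+ oil replicate 4 (144314 counts) a share of 9.37%. Scaling by library totals moved the median of all genes to 0.21 and that of the members to -0.61 against Cre-. Under that scaling 1040 genes were called higher and 386 lower in place of 717 and 629, and 62 members were called lower. Against oil the all-gene split moved from 814 higher and 757 lower to 1004 and 555, the median of all genes was 0.16, and 71 members were called lower.

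**Figure D3:**
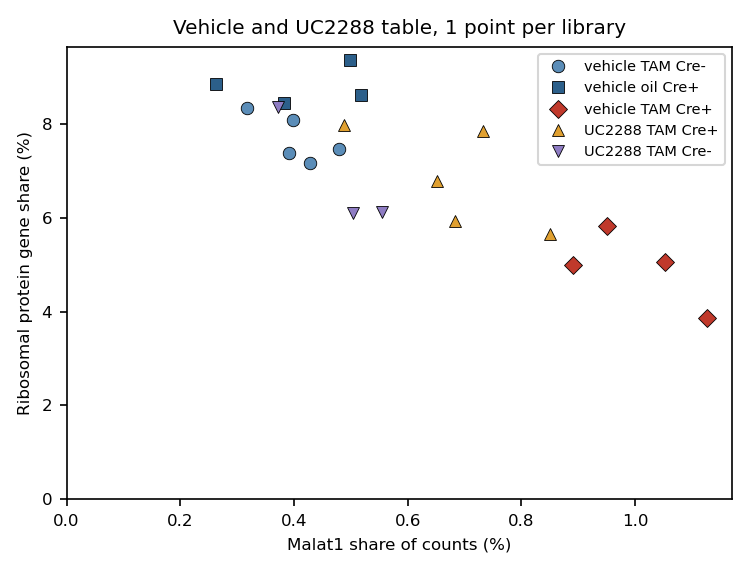
Share of the 81 genes against the share of Malat1 in the 21 libraries of the vehicle and UC2288 table, 1 point per library. Vehicle tamoxifen Cre+ libraries have the highest Malat1 shares (0.891% to 1.13%) together with low ribosomal shares, and UC2288 tamoxifen Cre+ libraries (0.489% to 0.851%) lie below them and overlap with the other groups.

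Among the other genes of translation, the counts below stand beside 12.7% of all tested genes called lower and 14.5% called higher against Cre-. Of 38 tested genes of the list of other ribosomal and translation genes, 10 were called lower and 1 higher against Cre-, with a median of -0.35. Tpt1, a growth-related TOP mRNA, fell by 1.34 on the log2 scale (edgeR adjusted p = 1.06e-06) and Eef1a1, the factor that delivers aminoacyl-tRNA, by 1.27 (adjusted p = 1.9e-05). Fau, which encodes the fusion precursor of a small-subunit protein, and Rack1, a scaffold on the small subunit, were called lower too, with log2 fold changes of -0.76 and -0.72. Of 32 mitochondrial ribosomal protein genes, 3 were called lower and none higher (median -0.40), a share of lower calls no larger than that of all genes. Of 23 ribosome biogenesis genes, 1 was called higher (Tcof1) and none lower (median -0.08). In the translation control list 6 of 16 genes were called higher and none lower, with a median of 0.70. They were Larp1, the TOP mRNA-binding protein (1.45, edgeR adjusted p = 7.59e-06), Rptor, the mTORC1 scaffold (1.42, adjusted p = 5.47e-04), the S6 kinase Rps6kb1 (1.02), the p53 regulator Mdm2 (0.89), Eif2ak2 and Cdkn1a. Cdkn1a rose by 2.86 on the log2 scale (adjusted p = 6.08e-12).

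In the postnatal table, where Littman Cre+ and Cre- mice both had tamoxifen and no vehicle or UC2288 is named, the ribosomal protein genes were higher in Cre+. The share was 4.79%, 3.95%, 4.30%, 4.69% and 4.86% in the 5 Cre+ libraries and 3.72%, 3.90%, 3.41%, 3.12% and 3.68% in the 5 Cre- libraries. The groups did not overlap, although the lowest Cre+ library was close to the highest Cre- library, with means of 4.52% ± 0.383 and 3.57% ± 0.306 (SD, n = 5 each). In edgeR's quasi-likelihood test, 45 of 76 members were called higher and none lower, where 4.75% of all 7076 tested genes were called higher and 3.35% lower. All 76 log2 fold changes were above 0, and their median was 0.37, against 0.00 for all tested genes. In 14 members the groups did not overlap, as in 3.04% of all genes. By subunit, 29 of 44 large-subunit and 16 of 30 small-subunit genes were called higher. Scaling by library totals changed the all-gene split from 336 higher and 237 lower to 272 and 301, with 39 members called higher.

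Rpl32, a large-subunit protein, had 597, 548, 562, 708 and 723 CPM in Cre+ and 405, 446, 347, 272 and 365 CPM in Cre- libraries. Every Cre+ library was above every Cre- library, and the log2 fold change was 0.77 (SE 0.107, edgeR adjusted p = 8.42e-08). Rplp0 had 950, 873, 908, 1094 and 1031 CPM in Cre+ and 751, 868, 713, 577 and 776 CPM in Cre- libraries. The groups did not overlap, though by a narrow gap, and the log2 fold change was 0.40 (SE 0.0882, edgeR adjusted p = 7.89e-04). Rps2 had the largest fold change of the members, 1.19 on the log2 scale (SE 0.271, adjusted p = 0.0106), with 1387, 455, 972, 1036 and 1236 CPM in Cre+ and 768, 452, 377, 256 and 384 CPM in Cre- libraries. Its groups overlapped, since Cre+ replicate 2 was below Cre- replicate 1, and it had the largest coefficient of variation of the members in this table (0.192). The 10 largest increases also included Rpl15, Rps26, Rpl10a, Rpl41, Rpl19, Rpl23 and Rpl28, between 0.57 and 0.84. Rpl15 is uncertain here too, with 1020 counts in its -ps rows beside 461 of its own.

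Rps27, lower in the vehicle table, had 208, 197, 215, 194 and 168 CPM in postnatal Cre+ and 215, 207, 170, 142 and 225 CPM in Cre- libraries. Its groups overlapped, and its log2 fold change of 0.04 (SE 0.127, edgeR adjusted p = 0.932) was the smallest of the 76. Rps27l had 130, 107, 79.5, 83.8 and 98.6 CPM in Cre+ and 100.5, 61.8, 53.0, 65.3 and 67.0 CPM in Cre- libraries. Cre- replicate 1 lay among the Cre+ values, and the log2 fold change was 0.52 (SE 0.183, adjusted p = 0.065). Rpl39 (0.41, adjusted p = 0.00989) and Rpl22 (0.33, adjusted p = 0.0304) were called higher, and Rpl22l1 was too low to be tested. Rpl39 lost its call without Cre- replicate 4 (adjusted p = 0.0789). Rpl22 lost it without Cre+ replicate 1, 4 or 5 or Cre- replicate 3, 4 or 5 (adjusted p = 0.0545 to 0.14).

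**Figure D4:**
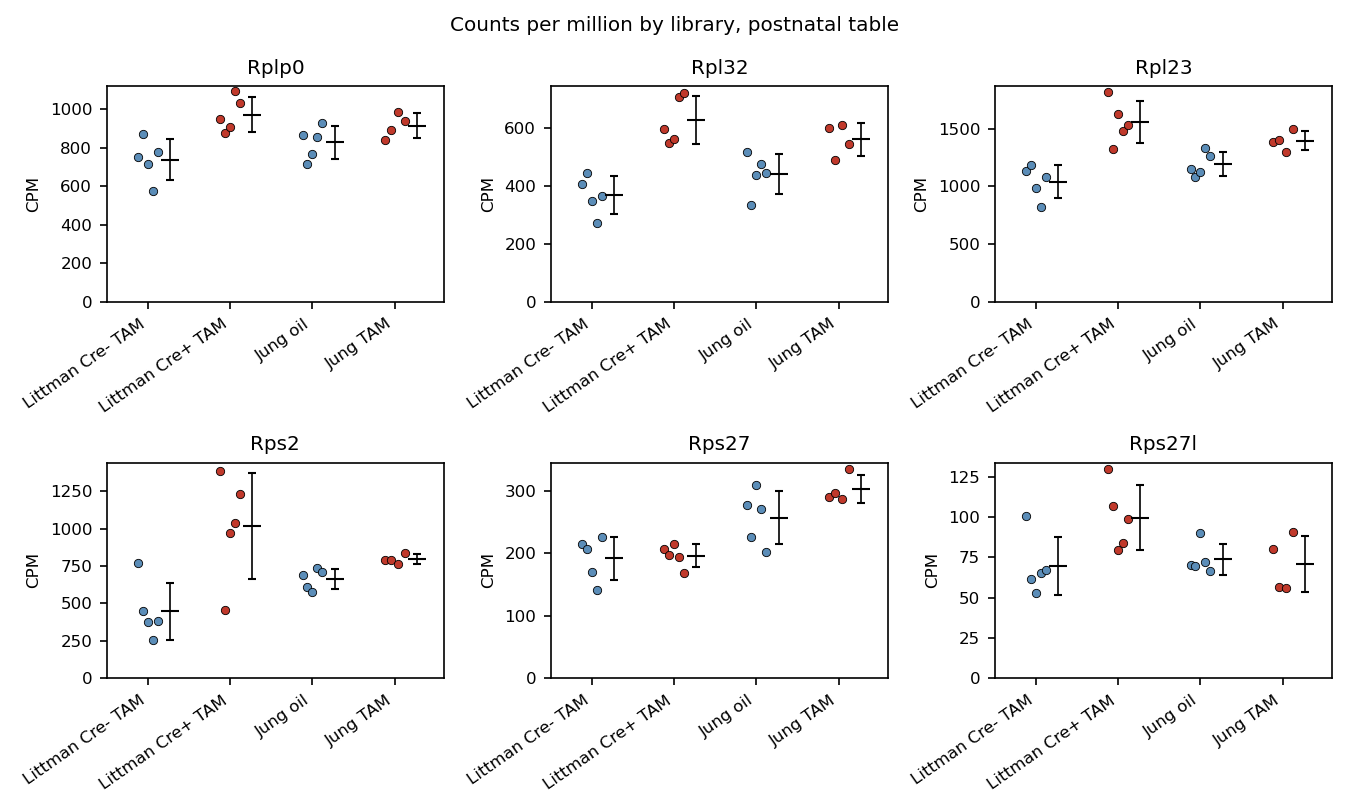
CPM of Rplp0, Rpl32, Rpl23, Rps2, Rps27 and Rps27l by library in the postnatal table, with the group mean and SD at the right of each group. Rpl32 and Rplp0 are higher in all 5 Littman Cre+ than in all 5 Cre- libraries, and Rps27 overlaps (168 to 215 CPM in Cre+).

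Values that moved with the postnatal difference were the mitochondrially encoded share (5.12% to 6.69% in Cre+ and 3.76% to 5.02% in Cre-), the Malat1 share (0.246% to 0.384% and 0.372% to 0.538%) and the microglia marker sum (14117 to 19171 and 19532 to 23169 CPM). The border macrophage list stood at 99.2 to 266 CPM in Cre+ and 87.8 to 123 CPM in Cre- libraries, with Lyve1, Cd163 and F13a1 at 0 in both. The neutrophil list reached 1097 CPM in 1 Cre- library and was at 0 in the Cre+ libraries. The monocyte list stood at 21.3 to 66.5 CPM in Cre+ and 2.6 to 50.9 CPM in Cre- libraries, with Ly6c2 and Chil3 at 0 in Cre+. The proliferation list stood at 455 to 768 CPM and 308 to 685 CPM. The endothelial list stood at 2.7 to 22.9 CPM and 21.1 to 43.9 CPM, with Cldn5 and Ly6c1 at 0 in both. The astrocyte list stood at 86.1 to 170.9 CPM and 149.3 to 228.9 CPM, with Gfap at 0 in Cre+. Their part in the result was not tested. In the pathway lists, 5 of 38 other translation genes (Eef1b2, Eef2, Eif3k, Rack1, Naca), 3 of 42 mitochondrial ribosomal protein genes (Mrpl30, Mrpl42, Mrpl33), 1 of 28 biogenesis genes (Polr1c) and 1 of 18 genes of the translation control list (Cdkn1a, its p53 target) were called higher and none lower, beside 4.75% of all genes higher and 3.35% lower. The last 3 counts are near the share of all genes. Their medians were 0.19, 0.20, -0.01 and 0.06. Cdkn1a thus rose in both tables, by 2.40 on the log2 scale here (edgeR adjusted p = 1.29e-11), while the ribosomal protein genes were higher in Cre+ in this table and lower in the vehicle table. The 2 tables were fitted separately, and the difference between them was not tested.

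In the Jung line, tamoxifen against oil gave smaller differences in the same table. The share was 4.79%, 4.44%, 4.69% and 4.60% with tamoxifen and 4.10%, 3.52%, 3.79%, 4.46% and 4.28% with oil, and the groups overlapped through 1 library on each side. Log2 fold changes were above 0 in 73 of 76 members, with a median of 0.19. Groups did not overlap in 10 members, as in 1.24% of all genes. Only Rpl39 was called by edgeR (1 of 76 members, where 0.0848% of all genes were called higher and 0% lower). It had 510, 436, 482 and 429 CPM with tamoxifen and 363, 240, 331, 340 and 346 CPM with oil, a log2 fold change of 0.52 (SE 0.112, edgeR adjusted p = 0.0209). All 4 tamoxifen values were above all 5 oil values, and DESeq2 called no member. The call was lost without oil replicate 2 (0.43, adjusted p = 0.274) or tamoxifen replicate 1, 3 or 4 (adjusted p = 0.0532 to 0.2). The Littman contrast compares Cre+ with Cre- under tamoxifen, and the Jung contrast compares tamoxifen with oil within 1 genotype. Their difference, named the postnatal line difference below, mixes genotype, drug, line and reporter, which cannot be told apart. EdgeR called that difference for 0 of 76 members (0.382% of all genes were called higher and 0.127% lower) and limma-voom for 0. DESeq2 called 3, where 35 genes in all were called higher and 14 lower. At an unadjusted edgeR p below 0.05 there were 16 members. The all-gene count at that threshold is not given here, so the 16 are not a result about the members alone. The median of that difference was 0.20. Under library totals the all-gene split of 27 higher and 9 lower became 25 and 20. Between Jung oil and Littman Cre- libraries the shares overlapped, with means of 4.03% and 3.57%. Log2 fold changes of Jung oil against Cre- were above 0 in 70 of 76 members. Of the members, 4 were called higher by edgeR (0.367% of all genes were called higher and 0.509% lower). They included Rps29 (0.36), Rps26 (0.46) and Rpl34 (0.37), with adjusted p-values of 0.0394 to 0.0495, and DESeq2 and limma-voom each called none. This comparison shares the Cre- libraries with the Littman contrast. Its groups differ in line, Cre and Cx3cr1 genotype, Rosa26YFP and tamoxifen, which cannot be told apart.

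In Cre+ tamoxifen pups the mean share was 6.84% with UC2288 and 4.94% with vehicle. The share was 5.66%, 7.85%, 6.78%, 7.97% and 5.94% in the 5 UC2288 Cre+ libraries, against 3.87% to 5.84% with vehicle. The groups overlapped, since 1 UC2288 library lay below the highest vehicle library. All 78 members had a log2 fold change above 0, with a median of 0.55, but edgeR called only Rpl37a (1.02, SE 0.222, adjusted p = 0.0237) and Rps26 (0.87, SE 0.215, adjusted p = 0.0467) higher, 2 of 78, where 0.363% of all genes were called higher and 0.101% lower. Groups did not overlap in 9 members, as in 2.48% of all genes. The count hung on single libraries and on the tool. It was 34 without UC2288 Cre+ replicate 1, 22 without replicate 5, 5 without vehicle Cre+ replicate 4, 1 without UC2288 Cre+ replicate 3, and 0 without UC2288 Cre+ replicate 2 or 4 or without vehicle Cre+ replicate 1 or 3, and DESeq2 called 36. Counts of all genes moved as well. DESeq2 called 148 genes higher and 28 lower, and edgeR 7 and 1 without UC2288 Cre+ replicate 3, in place of 18 and 5. All-gene counts of the other leave-one-out fits are not given here, so their member counts are not a result about these genes alone. Without UC2288 Cre+ replicate 3, the library with the high Cx3cr1, the difference in mean share was 1.92 percentage points in place of 1.90, and Rps26 was no longer called (adjusted p = 0.0549). By library totals or by DESeq2 size factors 8 genes were called higher and 4 lower, in place of 18 and 5, and the member count was 1. Rpl37a had 503, 864, 602, 1031 and 661 CPM with UC2288 and 248, 392.3, 239 and 596 CPM with vehicle, and 1 vehicle library lay among the UC2288 values. Malat1 took 0.489% to 0.851% of counts in UC2288 Cre+ libraries, below the 0.891% to 1.13% of vehicle Cre+ libraries, and its part in the result was not tested. Cdkn1a had a log2 fold change of -0.26 in this comparison (edgeR adjusted p = 0.593).

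In Cre- pups, UC2288 libraries had shares of 6.14%, 6.12% and 8.37%, which overlapped with the vehicle Cre- range of 7.17% to 8.34%. All 78 members had a log2 fold change below 0, with a median of -0.26. The tests by edgeR, DESeq2 and limma-voom called 0 of 78 (0% of all genes were called lower and 0.0202% higher), and 4 had an unadjusted p below 0.05. UC2288 Cre- replicate 3 stood apart from the other 2 libraries, and without it 3 members were called lower. The all-gene count of that fit is not given here, so this count is not a result about the members alone. The interaction, which asks whether the UC2288 difference itself differed between Cre+ and Cre- pups, was positive in all 78 members (median 0.82) and was called by edgeR in 8 (1.07% of all genes were called higher and 1.31% lower). These were Rpl37a, Rpl14, Rps26, Rpl12, Rpl21, Rpl18, Rpl27a and Rpl8, with log2 values from 0.97 to 1.27 and adjusted p-values from 0.0288 to 0.0471. Rpl14 and Rpl18 are uncertain, with 990 and 1637 counts in their -ps rows beside 2038 and 3422 of their own. Scaling by library totals moved the median of all genes to -0.20, the all-gene split from 53 higher and 65 lower to 19 and 127, and the member count to 1. The count ranged from 0 to 63 when single libraries were left out. It was 63 without UC2288 Cre- replicate 3, 44 without UC2288 Cre+ replicate 1, 26 without its replicate 5, 6 without its replicate 3, and 0 without UC2288 Cre- replicate 1 or 2 or vehicle Cre+ replicate 1 or 3. Without UC2288 Cre+ replicate 3, 46 genes in all were called higher and 58 lower. The all-gene counts of the other leave-one-out fits are not given here. Among UC2288-treated pups, Cre+ and Cre- libraries had mean shares of 6.84% ± 1.06 (SD, n = 5) and 6.88% ± 1.30 (SD, n = 3). EdgeR, DESeq2 and limma-voom called 0 of 78 members (3.61% of all genes were called higher and 0.586% lower), 1 had an unadjusted p below 0.05, and the median was -0.01. Without UC2288 Cre+ replicate 3 the difference in mean share was -0.02 percentage points in place of -0.04, and 1 member was called higher, Rps27l (0.90, edgeR adjusted p = 0.0299). In that fit 221 genes in all were called higher and 63 lower. With all libraries Rps27l had the highest value of the 78, 0.79 on the log2 scale (SE 0.275, edgeR adjusted p = 0.105), with 208, 277, 142, 324 and 216 CPM in Cre+ and 126, 85.6 and 182 CPM in Cre-. One library of each group fell within the range of the other. Cdkn1a rose in Cre+ here as well, by 2.68 on the log2 scale (adjusted p = 1.43e-08).

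**Figure D5:**
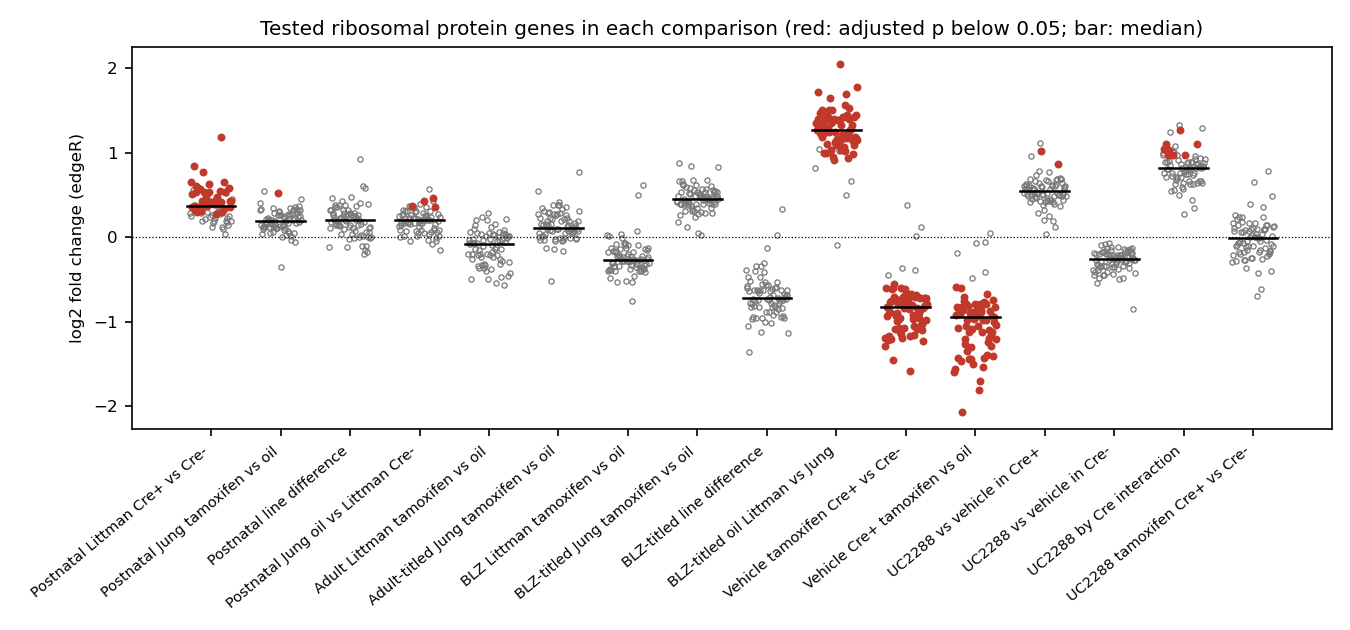
Log2 fold change (edgeR) of every tested ribosomal protein gene in each of the 16 comparisons, 1 point per gene, red where the adjusted p is below 0.05, with a bar at the median. The medians of 0.37 (postnatal Littman), -0.83 and -0.94 (vehicle) and 1.27 (BLZ-titled oil, Littman against Jung) are those with more than 8 members called.

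After BLZ945, tamoxifen-treated Littman libraries had shares of 6.56%, 7.83%, 6.21% and 7.56%, against 8.46%, 7.56% and 8.16% with oil. The groups overlapped. Log2 fold changes were below 0 in 71 of 77 members, with a median of -0.27. EdgeR, DESeq2 and limma-voom called 0 of 77 (0% of all genes were called lower and 0.116% higher), and 1 member had an unadjusted p below 0.05. In 12 members the tamoxifen libraries lay wholly below the oil libraries, as in 4.84% of all genes. In 1 member, Rps27l, they lay wholly above, as in 4.34% of all genes. It had 195, 252, 191 and 307 CPM with tamoxifen and 150, 131 and 180 CPM with oil. Its log2 fold change of 0.62 (SE 0.394, edgeR adjusted p = 0.795) did not pass the test, while that of Rps27 was -0.35 (SE 0.305, adjusted p = 0.861). Cdkn1a rose by 2.70 on the log2 scale (adjusted p = 1.36e-08).

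In the BLZ-titled Jung libraries, all 77 log2 fold changes for tamoxifen against oil were above 0, with a median of 0.45 and shares of 3.50%, 5.59%, 6.59% and 5.43% against 5.22%, 3.11%, 5.14% and 2.29%. Oil replicates 2 and 4 and tamoxifen replicate 1 had the 3 lowest shares, and the groups overlapped. EdgeR, DESeq2 and limma-voom called 0 of 77 (0% of all genes in either direction), and 18 had an unadjusted p below 0.05. The difference between the 2 lines' tamoxifen contrasts had a median of -0.72 and was called for 0 of 77 by the same 3 tools. EdgeR called 0% of all genes in either direction there, and 30 members had an unadjusted p below 0.05. All-gene counts at that unadjusted threshold are not given here, so the 18 and the 30 are not a result about the members alone. Scaling by library totals moved the median of all genes to 0.10 in that difference.

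Between the oil groups of this table, ribosomal protein genes were higher in Littman than in Jung libraries. Shares were 7.56% to 8.46% in Littman and 2.29% to 5.22% in Jung libraries, without overlap. EdgeR called 71 of 77 members higher and none lower, where 6.57% of all genes were called higher and 2.46% lower, with a median of 1.27. Groups did not overlap in 71 members, as in 11.2% of all genes. Rplp0 had 1783, 1576 and 1748 CPM in Littman oil and 923, 503, 905 and 279 CPM in Jung oil libraries, a log2 fold change of 1.39 (SE 0.279, edgeR adjusted p = 0.00133). The largest fold changes were those of Rps10 (2.05), Rpsa, a small-subunit protein also described as a laminin receptor precursor (1.78), Rpl13a (1.72), Rps19 (1.70), Rpl36 (1.65), Rps18, Rps26, Rpl19, Rpl34 and Rpl37a (1.51). Rps10 is uncertain, with 129 counts over the table and 70 more in its -ps rows. It had 4.97 to 33.7 CPM in Jung oil and 82.9 to 111 CPM in Littman oil, and entered the test only through libraries of groups other than Jung oil. Rps27 (1.27, adjusted p = 0.0113), Rpl39 (0.95, adjusted p = 0.00751) and Rpl22 (1.44, adjusted p = 4.04e-04) were called higher, and Rps27l (0.66, adjusted p = 0.413) was not. Rps27 lost its call without Jung oil replicate 2 or 4 or Littman oil replicate 3 (adjusted p = 0.0523 to 0.0903), and Rpl39 without Littman oil replicate 1 (adjusted p = 0.0727). The other members not called were Rps2, Rpl10, Rpl15, Rplp1 and Rpl7l1. The labels name BLZ945 for the Littman and not for the Jung libraries, and only the Jung mice carry Rosa26YFP, so line, reporter and BLZ945 cannot be told apart. Malat1 took 0.494% to 0.5004% of counts in Littman and 0.689% to 0.836% in Jung oil libraries, and the neutrophil list reached 2845 CPM in 1 Littman oil library and 0 in the Jung oil libraries. The monocyte list stood at 34.3 to 150.4 CPM in Littman and 5.3 to 15.7 CPM in Jung, with Ly6c2 and Chil3 at 0 in Jung. The microglia marker sum was 13402 to 14447 CPM and 16225 to 18635 CPM, and the mitochondrially encoded share 5.13% to 5.41% and 2.90% to 4.61%. The endothelial list stood at 0 to 8.7 CPM and 10.5 to 57.6 CPM, with Cldn5 and Ly6c1 at 0 in both. Their part was not tested. The member count was 52 without Littman oil replicate 1, in a fit whose all-gene count is not given here. With library totals as the scale the median of all genes was -0.30 and that of the members 1.03, with 66 members called higher, and the all-gene split went from 339 higher and 127 lower to 253 and 421.

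In adults without BLZ945, Littman tamoxifen libraries had shares of 2.38%, 2.26% and 2.54%, within the oil range of 3.20%, 2.70%, 1.61% and 2.805%. Of 75 members, 24 had a log2 fold change above 0 and 51 below, with a median of -0.09. EdgeR, DESeq2 and limma-voom called 0 (0.0181% of all genes were called higher and 0% lower), and 2 had an unadjusted p below 0.05. Without oil replicate 3, the library with the lowest share, edgeR called 5 members lower and the median was -0.32. The all-gene count of that fit is not given here, so this count is not a result about the members alone. Rps27 had a log2 fold change of -0.29 (SE 0.274) and Rps27l of 0.09 (SE 0.310), both with an edgeR adjusted p of 0.998. In the adult-titled Jung table, shares were 1.42%, 2.497%, 2.42% and 2.502% with tamoxifen and 1.66%, 2.21%, 1.69% and 2.77% with oil, and overlapped. The same 3 tools called 0 of 74 members (0% of all genes), 1 had an unadjusted p below 0.05, and the median was 0.11. Members varied more between replicates than genes in general in the adult and BLZ-titled tables: the median biological coefficient of variation was 0.242 for members and 0.182 for all tested genes in the adult Littman table, 0.238 and 0.185 in the adult Jung table, and 0.241 and 0.177 in the BLZ-titled table. In the postnatal (0.0996 and 0.0981) and vehicle tables (0.211 and 0.210) the 2 medians were close.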

How the data were processed

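The submitters' processing notes name HISAT2, GRCm38, featureCounts, Trim Galore and UMI-tools. Versions, counting options and annotation: not given in the sources used here. The authors deposited 5 tables of raw counts per gene, 1 column per library, which were used as deposited. The members and all gene lists were chosen with earlier results of these data known. For each table, genes passing edgeR's filterByExpr were fitted with all groups in one model (edgeR 4.0.16, TMM scaling, robust quasi-likelihood fit, R 4.3.3), p-values were adjusted by Benjamini-Hochberg over all tested genes, and a call is an adjusted p below 0.05. CPM are scaled by the TMM-adjusted total of tested genes, and marker sums by the total of all counts. Shares are percent of a column's total and have no test. Member counts at an unadjusted p below 0.05 have no all-gene count beside them here. Such counts are not a result about the members alone. DESeq2 1.42.0, limma-voom 3.58.1 and other settings were alternatives. Named members are up to 10 called members with the largest change in each direction, the highest, lowest and most variable members of a table, and Rplp0, Rpl39, Rps27, Rps27l, Rpl22 and Rpl22l1; members not called and counts of few members were named after their values were seen. The script was tested on simulated counts: for vehicle Cre+ against Cre-, with 4628 genes fitted, it recovered 40.8% of 71 genes changed 2-fold and 4.55% of 66 changed 1.5-fold. For postnatal Littman Cre+ against Cre-, with 6848 genes fitted, these were 74.6% of 67 and 29.5% of 61. Recovery of 2-fold changes was 20.6% for UC2288 in Cre- and 19.7% for UC2288 Cre+ against Cre-. For adult Littman tamoxifen it was 42% at 2-fold and 8.2% at 1.5-fold, and for adult-titled Jung 49.2% and 5%. For BLZ-titled tamoxifen it was 40% and 8.2% in Littman and 44.4% and 3.33% in Jung. A count of 0 members in these comparisons therefore does not show that no member changed. No 2 replicates matched within sampling noise (chi-square per degree of freedom 1.09 to 6.87 over 113 pairs). Depth was 116083 to 450461 counts per library. Some genes that the naming rule selects are not reported here.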

Additional observations from a re-analysis of the deposited data

Results flagged for a closer look

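Within groups of 4 or 5 libraries, the summed share and the CPM of 6 fixed members were searched for a single library far from the rest. Of 98 such sets, 7 were flagged, and chance flags about 1 in 20. The summed share of adult-titled Jung tamoxifen replicate 1 was 1.42%, with the other 3 at 2.42% to 2.502%. Rpl39 was 239.9 CPM in postnatal Jung oil replicate 2, with the other 4 at 331 to 363 CPM. Rps27l was 90.3 CPM in postnatal Jung oil replicate 3, with the others at 66.4 to 72.3 CPM. Rps27 was 114.5 CPM in adult Littman oil replicate 3, with the others at 300 to 319 CPM, and that library also had the lowest share of its group. Rpl22l1 was 33.7 CPM in BLZ-titled Jung oil replicate 3, with the others at 0 to 4.49 CPM. Rpl39 was 954.5 CPM in UC2288 Cre+ replicate 4, with the others at 425 to 576 CPM. Rpl22 was 333.6 CPM in vehicle tamoxifen Cre+ replicate 3, with the others at 709 to 739 CPM.

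The UC2288 difference itself differed between Cre+ and Cre- pups in 8 members by edgeR's interaction test (n = 3 to 5 libraries per group). In that test 1.07% of all genes were called higher and 1.31% lower. The member count was 1 under library totals, and all 8 calls were lost without UC2288 Cre- replicate 1 or 2. The log2 interactions were 1.04 for Rpl12 (adjusted p = 0.0451), 1.11 for Rpl14 (0.0319), 0.98 for Rpl18 (0.045), 1.03 for Rpl21 (0.0403), 0.97 for Rpl27a (0.0361), 1.27 for Rpl37a (0.0288), 0.97 for Rpl8 (0.0471) and 1.10 for Rps26 (0.045). The Littman Cre+ minus Cre- difference in summed share was 0.95 percentage points in the postnatal table and -2.75 in the vehicle table, with no overlap between groups in either. That opposition was not tested.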

How the results depend on the processing

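No called value of a named member reversed under any alternative, and other called members were not followed. The share difference of adult Littman tamoxifen against oil (-0.507 to 0.0227 percentage points) changed sign when single libraries were left out. So did that of UC2288 Cre+ against Cre- (-0.415 to 0.714). Leaving out 1 library at a time gave 34 to 56 members for postnatal Littman Cre+ against Cre- (45 with all libraries), 60 to 71 for vehicle Cre+ against Cre- (71), 67 to 72 for vehicle tamoxifen against oil (72) and 52 to 73 for the Littman and Jung oil groups (71). Small counts did not: 0 to 2 for postnatal Jung tamoxifen (1), 0 to 1 for the postnatal line difference (0), 0 to 4 for Jung oil against Cre- (4), 0 to 5 for adult Littman (0), 0 to 34 for UC2288 in Cre+ (2), 0 to 3 in Cre- (0), 0 to 63 for the interaction (8) and 0 to 1 for UC2288 Cre+ against Cre- (0). The adult Jung count, both BLZ-titled tamoxifen counts and their line difference were 0 in each such fit. All-gene counts of most of these fits are not given here, so the ranges are not a result about the members alone. By setting, Jung oil against Cre- gave 2 members with DESeq2 size factors (22 genes in all higher and 35 lower). It gave 1 with TMM computed without the members (21 and 35) and 2 without the low-count filter (34 and 77). It gave 0 with DESeq2 (9 and 22), limma-voom (19 and 17) or non-robust edgeR (18 and 38). Non-robust edgeR was an alternative added after seeing the data. When only its own groups were fitted it gave 9 (60 genes in all higher and 60 lower). Postnatal Jung tamoxifen gave 0 with DESeq2 (4 genes in all higher and 0 lower) and 9 with only its own groups (17 and 6). The postnatal line difference gave 1 without the filter (33 genes in all higher and 15 lower) and 3 with DESeq2 (35 and 14). UC2288 in Cre+ gave 1 with DESeq2 size factors or library totals (8 genes in all higher and 4 lower in each). It also gave 1 with limma-voom (3 and 0) or Xist as covariate (6 and 2). It gave 9 without the filter (85 genes in all higher and 22 lower) and 36 with DESeq2 (148 and 28). With only its own groups it gave 0, in a fit that called 0 genes in all. The interaction gave 5 with DESeq2 size factors (46 genes in all higher and 73 lower) and 1 with library totals (19 and 127). It gave 16 without the filter (105 and 59) and 36 with DESeq2 (164 and 93). It gave 3 with non-robust edgeR (47 and 49), 2 with Xist as covariate (33 and 44) and 2 with only its own groups (35 and 49). Replicate numbers did not pair the samples: correlations of same-numbered libraries ran from 0.04 to 0.08 for postnatal Littman and from -0.02 to 0.04 for vehicle Cre+ against Cre-, and from -0.359 to 0.344 over all comparisons, and in none did every pair correlate best with its own number. A replicate block left 1 member for the interaction (38 genes in all higher and 44 lower) and moved no other count by over 1.5 times. The share difference of -2.75 for vehicle Cre+ against Cre- was -3.51 without mitochondrial rows, -3.68 over protein-coding rows and -3.41 with the -ps rows added, and that against oil was -4.77 with the -ps rows (-3.89 without). The 70 called values of named members had 1368 alternatives in all, of which 215 lost the call and none reversed. The lost calls were in 73 of 699 settings other than leaving out a library, and in 142 leave-one-out fits. The cause of these changes was not tested. In simulated counts for vehicle Cre+ against Cre-, 4.55% of genes changed 1.5-fold and 40.8% of those changed 2-fold were called.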
